A study of Mus musculus with 6 samples.

Results

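Glycolytic enzymes were followed in preparations of kidney tubule cells from mice labelled as lacking Vhl, with or without the additional deletion of Setd2. The set held 10 genes: the hexokinases Hk1 and Hk2, the phosphofructokinases Pfkl and Pfkp, the aldolase Aldoa, the phosphoglycerate kinase Pgk1, the enolase Eno1, the pyruvate kinase Pkm, the lactate dehydrogenase Ldha and the lactate exporter Slc16a3. They were picked by symbol from the 46095 genes of the count table, and all 10 of the 10 were found there. All 10 also passed the filter on low counts that left 14611 genes for testing. The libraries were bulk RNA-seq of primary tubular epithelial cells freshly isolated from the kidneys of mice on a C57 background, aged 10 weeks. The group labelled VHL-KO has 3 libraries, replicates 1, 2 and 4, and in these mice floxed Vhl was deleted by a Cre under the Ksp-cadherin promoter, which the study used for tubular epithelial cells. The share of the sequenced cells in which the Cre had acted, and in which tubule segments, is not known from these counts. The group labelled VHL-KO;SETD2-KO has 3 libraries, replicates 2, 3 and 4, and there floxed Setd2 was deleted by the same Cre together with Vhl. By the labels every library carried the Vhl deletion, and the comparison bears on the added Setd2 deletion and not on loss of Vhl.

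Glycolysis turns glucose into pyruvate, and lactate dehydrogenase and a monocarboxylate carrier turn pyruvate into exported lactate. The VHL protein marks hypoxia-inducible factors (HIF) for destruction, so cells without it keep HIF active in normal oxygen, and many glycolytic genes are textbook HIF targets. Healthy proximal tubule cells rely on fatty acid oxidation and make glucose rather than burn it, whereas clear cell renal cancers, in which VHL and often SETD2 are lost, are known for high glycolysis. SETD2 is the enzyme that places trimethylation on lysine 36 of histone H3.

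HIF recognises a short core motif, and the promoters of the members were read for it. Windows from 250 bases before to 50 bases after each RefSeq start site (GRCm38.p6) were searched for ACGTG or GCGTG on either strand. All 10 members had the core in at least 1 window, against 46.7% of the 27025 genes with a window, and 14 of the 17 member windows held it, against 43.8% of 32851 windows. With ACGTG alone the share was 7 of 10 members against 21.8% of genes. The core is short, so a match is a description and not evidence of binding. Some windows of Aldoa and of Eno1 overlap and share the same cores, and a gene with more windows has more places for a match. The background of all genes was not matched for number of windows, base composition or expression. Each stretch below is the run of 80 bases upstream of a start site that held most cores, so its number of cores follows from that choice. The core on either strand is in capitals. The stretches shown are from Slc16a3, Pfkl and Ldha, among the 9 members whose levels were highest in VHL-KO replicate 4, and from Hk2, which was not. Pkm, Aldoa and Eno1, not shown, exceeded the other VHL-KO libraries there by a larger fold than Ldha.
Slc16a3, chr11:120948987-120949066, plus strand: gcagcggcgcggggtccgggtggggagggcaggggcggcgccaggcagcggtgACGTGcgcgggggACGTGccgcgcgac
Ldha, chr7:46845723-46845802, plus strand: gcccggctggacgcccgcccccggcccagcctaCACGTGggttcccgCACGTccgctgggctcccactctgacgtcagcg
Pfkl, chr10:78009865-78009944, minus strand: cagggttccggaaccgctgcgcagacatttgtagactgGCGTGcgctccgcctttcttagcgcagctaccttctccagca
Hk2, chr6:82774465-82774544, minus strand: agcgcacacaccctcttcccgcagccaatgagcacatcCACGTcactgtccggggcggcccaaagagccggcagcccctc
Ldha and Slc16a3 held several cores within these 80 bases, and Hk2 and Pfkl held 1 each. Over the whole window of that start site, Hk2 and Slc16a3 held 2 cores each, Ldha 7 and Pfkl 1. A link between the number of cores and the counts was not tested. In the Ldha stretch the run CACGTG is counted on both strands. The 7 cores of the whole Ldha window include another CACGTG further upstream that is also counted on both strands, so they are not 7 separate sites.

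The library labelled VHL-KO replicate 4 stood apart from the other 5 and decides much of what follows. Its rank correlations with the other libraries ranged from 0.717 to 0.765, while those among the other 5 started at 0.937. Mitochondrial genes took 11.3% of its counts, against 25.9% to 36.4% elsewhere, and total counts per library ran from 11168552 to 17883466. Across all tested genes, 40.0% were highest and 41.7% were lowest in that library. The check of the targeted gene did not show the labelled loss: Setd2, counted over the whole gene, had 1179, 799 and 132 counts in VHL-KO and 1499, 1019 and 1429 counts in VHL-KO;SETD2-KO as labelled. The lowest Setd2 count was thus in VHL-KO replicate 4, and the edgeR log2 fold change was 0.52 with a standard error (SE) of 0.64 (adjusted p = 0.787). Without that library it was 0.05 (SE 0.21), and with the correction for transcript length and GC content given below it was 0.09. Setd2 transcripts have a median length of 8350 bases and 44.3% GC. The study itself reported reduced SETD2 and H3K36me3 in the tubules by Western blot, staining and RT-qPCR. Vhl was counted in every library (139 to 317 counts), and gene-level counts cannot show whether the floxed part is missing. Every direction below is therefore between libraries as labelled.

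Over the 10 members together, none was called between the groups, and the sign of 4 fold changes, those of Pfkl, Aldoa, Pkm and Slc16a3, turned when VHL-KO replicate 4 was left out. By edgeR's quasi-likelihood test with Benjamini-Hochberg adjustment over all 14611 genes, 0 of 10 members were called at an adjusted p under 0.05 and a fold of at least 1.5; of all genes, 0% were called higher and 0.00684% lower. At an unadjusted p, 0 of 10 members were again called, where the background was 2.65% higher and 4.68% lower. In mean, 3 members were higher and 7 lower in the VHL-KO;SETD2-KO libraries (2 and 8 with DESeq2's size factors, where Pfkp was just below 0), with a median log2 fold change of -0.89, while the median over all genes was 0.01. Without VHL-KO replicate 4, 7 members were higher and 3 lower, with a median of 0.43 (all genes 0.04). The lowest adjusted p of any member was 0.625 with all libraries and 0.145 without that replicate.

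**Figure D1:**
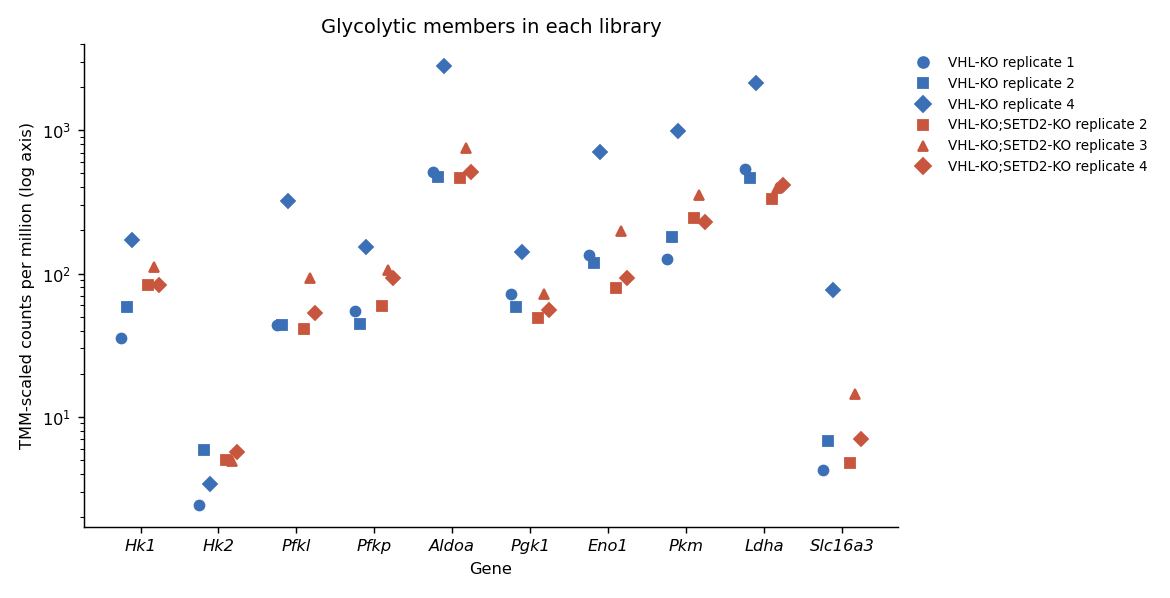
TMM-scaled CPM (log axis) of each member in each of the 6 libraries, with 1 point per library and the replicate number given by the symbol. VHL-KO replicate 4 (blue diamond) is the highest library for 9 of the 10 members, all but Hk2.

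Levels below are in CPM, the counts of a gene scaled to the size of its library with TMM factors, given for VHL-KO replicates 1, 2 and 4 and then for VHL-KO;SETD2-KO replicates 2, 3 and 4.

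Hexokinases trap glucose in the cell by phosphorylating it. Hk1, the form found in most tissues, was at 35.7, 58.7 and 172.7 CPM in the VHL-KO libraries and at 83.1, 110.6 and 82.7 CPM in the VHL-KO;SETD2-KO libraries. The VHL-KO libraries thus held both the lowest and the highest values, and the groups overlapped. The edgeR log2 fold change was 0.05 (SE 0.60, adjusted p = 0.982). Without VHL-KO replicate 4 it was 0.96 (SE 0.26, unadjusted p = 0.0104, adjusted p = 0.145), and every VHL-KO;SETD2-KO library was then above both VHL-KO libraries. Hk2, the hypoxia-inducible form, was the scarcest member, at 2.42, 5.83 and 3.37 CPM against 4.99, 4.90 and 5.71 CPM, from 36 to 94 counts per library. Those groups overlapped, the log2 fold change was 0.43 (SE 0.48, adjusted p = 0.769), and Hk2 alone among the members was not highest in VHL-KO replicate 4.

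Phosphofructokinase commits sugar to glycolysis, and Pfkl and Pfkp encode its liver and platelet subunits. Pfkl was at 43.8, 43.5 and 320.0 CPM in the VHL-KO libraries and at 40.8, 92.5 and 53.2 CPM in the others. Its log2 fold change was -1.13 (SE 0.83, adjusted p = 0.669) and turned to 0.51 without VHL-KO replicate 4, so its direction depended on that library. Pfkp was at 54.7, 44.3 and 152.2 CPM against 59.1, 105.9 and 93.3 CPM. The log2 fold change of Pfkp was 0.04 (SE 0.56, adjusted p = 0.984), and without VHL-KO replicate 4 it was 0.79 (SE 0.27, unadjusted p = 0.0275, adjusted p = 0.197) with no overlap between groups.

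Aldolase splits the phosphorylated sugar into triose phosphates. Aldoa, the form of muscle and most other cells, was at 510, 473 and 2819 CPM in the VHL-KO libraries and at 468, 756 and 509 CPM in the VHL-KO;SETD2-KO libraries. Without the 2819 CPM of VHL-KO replicate 4, the remaining 5 libraries lay between 468 and 756 CPM. The log2 fold change of -1.13 (SE 0.75, adjusted p = 0.644) became 0.23 once that library was left out.

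The payoff steps make ATP, with Pgk1 and Pkm encoding the ATP-forming kinases and Eno1 the enolase between them. Pgk1 was at 72.2, 58.7 and 140.5 CPM against 48.6, 71.6 and 55.4 CPM, and its log2 fold change of -0.63 (SE 0.46, adjusted p = 0.668) shrank to -0.17 without VHL-KO replicate 4. Eno1 was at 134, 119 and 712 CPM against 79.5, 197 and 93.0 CPM, and its log2 fold change of -1.38 (SE 0.78, adjusted p = 0.625) shrank to -0.04. Both genes overlapped between groups with all libraries counted. Pkm was at 126, 179 and 988 CPM against 243, 353 and 228 CPM. The Pkm log2 fold change was -0.65 (SE 0.78, adjusted p = 0.781) and turned to 0.85 (SE 0.27, unadjusted p = 0.0214, adjusted p = 0.182) without VHL-KO replicate 4, where all VHL-KO;SETD2-KO libraries were above both VHL-KO libraries. The counts are per gene, so the splice forms of Pkm (M1 and M2) could not be separated. Eno1 has a near-identical copy, Eno1b, that took 30.5% to 56.1% of the counts of the pair, and the level of either depends on how such reads were assigned. The summed level of Eno1 and Eno1b was 218, 196 and 1133 CPM in the VHL-KO libraries and 173, 283 and 212 CPM in the others.

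Ldha, which reduces pyruvate to lactate, was the 1 member whose groups did not overlap. It was at 541, 467 and 2155 CPM in the VHL-KO libraries and at 331, 398 and 413 CPM in the VHL-KO;SETD2-KO libraries. All 3 of the latter were below all 3 of the former. Of all tested genes, 11.0% were lower and 9.62% higher without overlap, so 1 of 10 lower is near the background. The log2 fold change was -1.47 (SE 0.66, unadjusted p = 0.0556, adjusted p = 0.625) and -0.41 (95% interval -0.87 to 0.05, adjusted p = 0.282) without VHL-KO replicate 4. Slc16a3 encodes MCT4, the lactate exporter of glycolytic cells. It was at 4.24, 6.75 and 77.2 CPM against 4.78, 14.5 and 6.96 CPM. The Slc16a3 log2 fold change of -1.75 (SE 1.05, adjusted p = 0.628) turned to 0.67 without VHL-KO replicate 4, a library that alone held 825 of its counts where the other 5 held 70 to 257.

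With VHL-KO replicate 4 left out, the calls at an unadjusted p were Hk1, Pfkp and Pkm, all 3 higher, where the background was 8.29% higher and 7.14% lower. The same 3 members were higher and Ldha was lower without overlap, against 20.4% of all genes higher and 21.5% lower. None of the 10 passed adjustment by edgeR. DESeq2's Wald test on these 5 libraries did call 2 members higher, Hk1 (adjusted p = 0.0227) and Pkm (adjusted p = 0.0488), where the background was 3.56% higher and 4.69% lower. On all 6 libraries DESeq2 gave an adjusted p for 4 of the 10 members, Aldoa (0.264), Eno1 (0.198), Pkm (0.565) and Ldha (DESeq2 adjusted p = 0.126), and called 0 of these 4. At an unadjusted p DESeq2 called 2 members lower, Eno1 (DESeq2 unadjusted p = 0.0459) and Ldha (0.0167), against 2.86% of genes higher and 7.75% lower. For the other 6 members DESeq2 returned no adjusted p, and for Slc16a3 no p at all. A figure legend of the study gives 3 mice a group for these cells, while its methods give 10 mice for cell isolation and no number for the sequencing. An absent call among 3 libraries a group does not show equal levels: the 95% interval of Aldoa, for example, ran from -2.86 to 0.59.

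**Figure D2:**
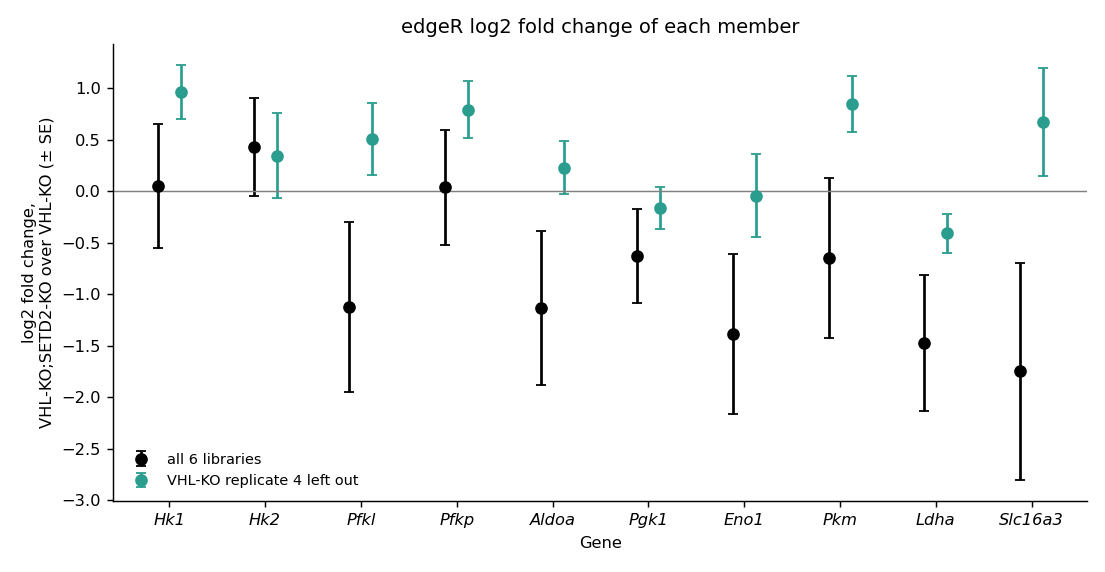
edgeR log2 fold change of each member, VHL-KO;SETD2-KO over VHL-KO, with bars of ± 1 SE, for all 6 libraries (black) and with VHL-KO replicate 4 left out (green). Without that library the values of 7 members lie above 0 and the error bars are shorter for all 10.

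VHL-KO replicate 4 exceeded the mean of VHL-KO replicates 1 and 2 by 14.0-fold for Slc16a3, 7.33-fold for Pfkl, 6.48-fold for Pkm, 5.74-fold for Aldoa, 5.63-fold for Eno1 and 4.28-fold for Ldha. Hk1 (3.66-fold), Pfkp (3.07-fold) and Pgk1 (2.15-fold) followed, and Hk2 was at 0.82 of that mean. The second highest library was VHL-KO;SETD2-KO replicate 3 for 7 of the 10 members, against 20.7% of tested genes. In this library the departure followed base composition over the whole transcriptome. The median log2 ratio of VHL-KO replicate 4 over the other VHL-KO libraries was -1.80, 0.07 and 1.37 in genes of low, middle and high transcript GC content (3 bins of equal size), and 5.26%, 39.6% and 76.1% of genes in these bins were highest there. By length the medians were 0.82, 0.04 and -0.94 from the bin of short to that of long transcripts. Of the members, 7 were in the high GC bin, 3 in the middle and 0 in the low one. Median GC content of the members ran from 49.7% in Pgk1 to 58.7% in Slc16a3. Hk2, at 54.4%, was in the high GC bin, yet its log2 ratio in this library was -0.15.

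A correction for transcript length and GC content in each library, chosen after seeing the data, gave 3 members higher and 7 lower with a median log2 fold change of -0.40. With it the value was -0.72 for Slc16a3, -0.51 for Pfkl, -0.20 for Aldoa, 0.18 for Pkm and -0.98 for Ldha. None of the 10 was called (lowest adjusted p = 0.307). The part that RNA quality, dissociation or cell make-up had in this library was not tested.

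**Figure D3:**
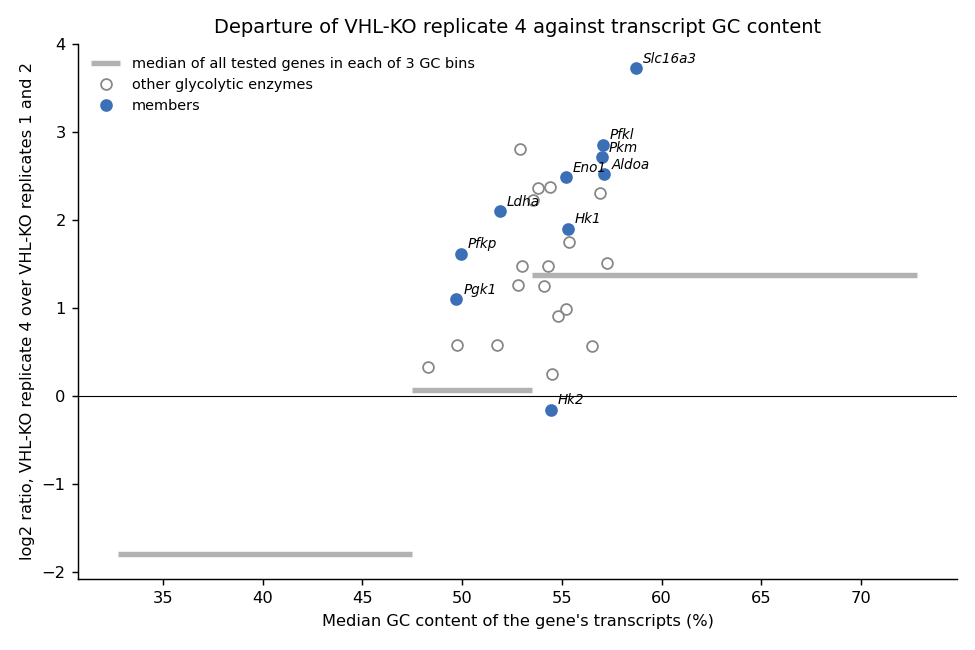
Log2 ratio of VHL-KO replicate 4 over VHL-KO replicates 1 and 2 against the median GC content of each gene's transcripts, for the members (filled) and other glycolytic enzymes (open). Grey bars are medians of all tested genes in 3 bins of GC content, at -1.80, 0.07 and 1.37, and all members but Hk2 lie above 0.

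Per kilobase of transcript, the members spanned a wide range of levels. Means over the 6 libraries, in CPM per kilobase ± SD, were 621 ± 630 for Aldoa, 452 ± 446 for Ldha, 158 ± 143 for Pkm, 113 ± 124 for Eno1, 40.8 ± 18.4 for Pgk1, 26.5 ± 29.5 for Pfkl, 24.9 ± 11.9 for Pfkp, 24.2 ± 12.7 for Hk1, 7.99 ± 12.0 for Slc16a3 and 1.09 ± 0.33 for Hk2. Without VHL-KO replicate 4 the means were lower by over 1.5 times for 6 of them: 366 for Aldoa, 271 for Ldha, 101 for Pkm, 63.3 for Eno1, 14.7 for Pfkl and 3.12 for Slc16a3. The order Aldoa, Ldha, Pkm held in 6 of 6 libraries, as did Hk1 over Slc16a3 over Hk2, and Pkm was above Eno1 in 5. The neighbours Pfkl, Pfkp and Hk1 were not ordered, since Pfkl was above Pfkp in 1 library and Pfkp above Hk1 in 3. Their places also changed with the transcript length used: with the median over all transcript models, which include fragments, Hk1 was at 156 and Pkm at 487 CPM per kilobase. Together the members took 0.141%, 0.141% and 0.625% of counts in the VHL-KO libraries and 0.154%, 0.243% and 0.158% in the VHL-KO;SETD2-KO libraries. The difference in mean share was -0.117 percentage points and turned to 0.0442 without VHL-KO replicate 4.

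Ratios between paired isoforms within a library do not depend on library scaling, but they can follow transcript GC content and length. Median GC content was 58.7% in Slc16a3 and 42.9% in Slc16a1. It was 57.1% in Pfkl, 49.9% in Pfkp and 54.1% in Pfkm. Closer values were found in Hk2 and Hk1 (54.4% and 55.3%) and in Ldha and Ldhb (51.9% and 53.0%). The ratios were not corrected for GC content, and its part in them was not tested. In all, 5 ratios were compared. None was called by a two-sided exact permutation test (adjusted p = 0.75 or above over the 5), in which 3 against 3 libraries cannot go below 0.1. The hypoxia-inducible Hk2 was a small part of hexokinase, at log2 ratios to Hk1 of -3.86, -3.32 and -5.66 in the VHL-KO libraries and -4.05, -4.49 and -3.85 in the VHL-KO;SETD2-KO libraries.

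The platelet over the liver phosphofructokinase, Pfkp/Pfkl, stood at log2 ratios of 0.32, 0.03 and -1.07 against 0.53, 0.19 and 0.81 (difference 0.75, exact permutation p = 0.2). For the muscle form, Pfkm/Pfkl was at -0.26, -0.24 and -1.86 against -0.07, -0.85 and -0.43. Ldha/Ldhb, the ratio of the lactate-forming to the heart-type subunit, was at -0.49, -0.54 and 0.11 against -0.73, -1.16 and -0.45 (difference -0.48, exact permutation p = 0.3). Slc16a3/Slc16a1, the exporter MCT4 over the bidirectional carrier MCT1, was at -3.33, -2.06 and 3.11 against -2.09, -1.55 and -1.58. Slc16a1 was above Slc16a3 in 5 of 6 libraries, per kilobase as well as in counts, and VHL-KO replicate 4 was the exception. The differences for Hk2/Hk1 (0.15), Pfkm/Pfkl (0.33) and Slc16a3/Slc16a1 (-0.98) changed sign without that library.

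**Figure D4:**
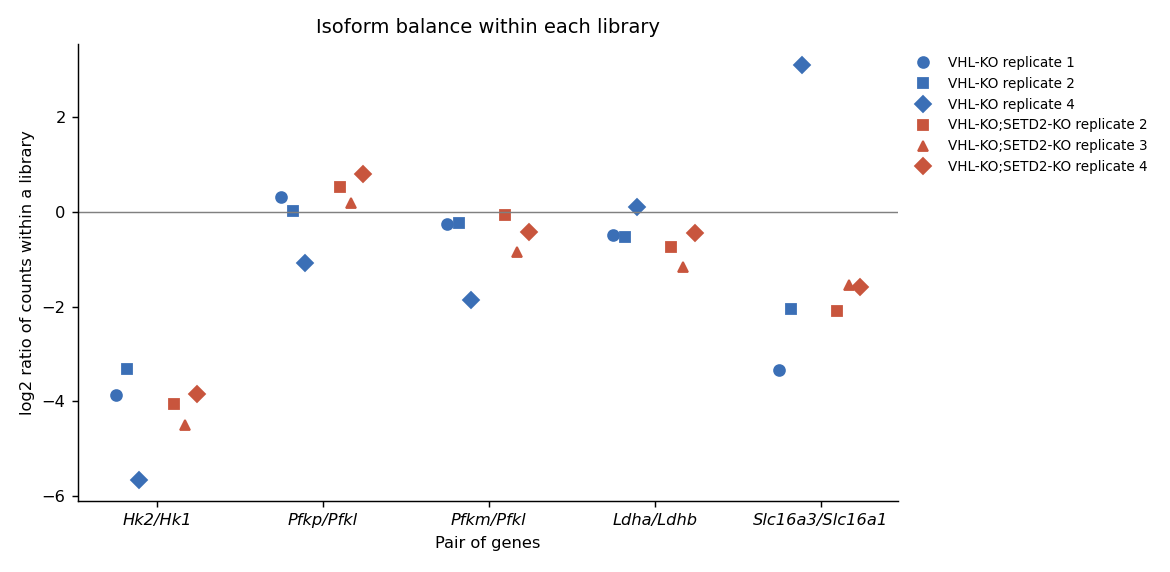
Log2 ratio of counts between paired genes within each library, 1 point per library. VHL-KO replicate 4 is the extreme library in all 5 ratios, and the groups overlap in all 5.

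Other glycolytic enzymes were lower in mean in the VHL-KO;SETD2-KO libraries, and VHL-KO replicate 4 was the high library for these too. Of 19 listed, 18 were tested, 17 were lower in mean (median log2 fold change -0.68, and -0.01 without VHL-KO replicate 4) and 17 were highest in VHL-KO replicate 4. At an unadjusted p edgeR called 1, Ldhd, a mitochondrial D-lactate dehydrogenase that was on the list but is not itself an enzyme of glycolysis. Ldhd was at 1124, 1021 and 1591 CPM against 398, 143 and 480 CPM. Its groups did not overlap, and its log2 fold change was -1.87 (SE 0.56, edgeR adjusted p = 0.625) and -1.66 (edgeR adjusted p = 0.158) without VHL-KO replicate 4. DESeq2's Wald test did call Ldhd lower, with an adjusted p of 0.0282 on all 6 libraries and 0.00963 without that replicate. By the same rule DESeq2 called 50 genes lower on all 6 libraries, and 4.69% of genes lower without VHL-KO replicate 4. In all, edgeR called 1 of the 18 lower at an unadjusted p, where the background was 4.68%. Without overlap 5 were lower, where the background was 11.0%: Ldhd, Tpi1, Gapdh, Pgam1 and Bpgm. Of these, Gapdh is a gene with many processed copies, and its count depends on how such reads were assigned.

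Among the 8 tested carriers of glucose and lactate, 0 were called. Without overlap 1 was higher, where the background was 9.62%: Slc16a7, at 66.4, 83.0 and 19.3 CPM against 92.6, 189 and 107 CPM. Bsg, the chaperone that MCT1 and MCT4 need at the membrane, was at 284, 265 and 1768 CPM against 235, 406 and 236 CPM. Slc5a2, the glucose carrier SGLT2 of the early proximal tubule, was at 329, 218 and 1500 CPM against 177, 385 and 185 CPM. The log2 fold change was -1.40 for Bsg and -1.45 for Slc5a2, and 0.09 and -0.14 without VHL-KO replicate 4. Slc2a2, the basolateral glucose exit GLUT2, was at 182, 131 and 100 CPM against 82.6, 122 and 101 CPM. In the 18 enzymes that steer between glycolysis, gluconeogenesis and mitochondrial oxidation, 1 was called at an unadjusted p: Pfkfb4, which sets the level of a phosphofructokinase activator, at 7.33, 9.71 and 10.7 CPM against 5.15, 5.01 and 4.33 CPM (log2 fold change -0.93, SE 0.39, edgeR adjusted p = 0.625). Its groups did not overlap. That 1 of 18 was called lower, where the background was 4.68%. Without overlap 2 of the 18 were higher (Pdp1 and Pfkfb3) and 2 lower (Pdk3 and Pfkfb4), against 9.62% and 11.0% of all genes.

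Of the 8 genes of the VHL-HIF axis, 0 were called, and 1 was higher without overlap, where the background was 9.62%. Epas1, which encodes HIF-2alpha, was at 272, 320 and 125 CPM in the VHL-KO libraries and at 706, 365 and 534 CPM in the VHL-KO;SETD2-KO libraries, with no overlap. Its log2 fold change was 1.16 (SE 0.51, edgeR adjusted p = 0.625), and Epas1 is also strongly expressed in endothelium. Egln1, the oxygen sensor PHD2 and itself a HIF target, was at 55.0, 54.5 and 80.1 CPM against 51.2, 66.7 and 55.3 CPM.

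Markers of cell types differed between the groups beside these results. The summed level of 12 proximal tubule markers was 32636 to 37044 CPM in the VHL-KO libraries and 12019 to 15714 CPM in the VHL-KO;SETD2-KO libraries. Of the 12, 11 were lower in mean, 4 were called lower at an unadjusted p (background 4.68%) and 6 were lower without overlap (background 11.0%). Kap and Slc34a1 weighed most in the VHL-KO sums. In VHL-KO replicates 1, 2 and 4 Kap was at 18289, 16188 and 7619 CPM and Slc34a1 at 4979, 4759 and 14206 CPM. Single markers did not all follow the sum: Lrp2 (940 CPM) and Slc5a12 (53.7 CPM) were lowest of all 6 libraries in VHL-KO replicate 4. All 6 podocyte markers were higher in mean (1465 to 2137 against 2008 to 4929 CPM), 3 of them called (background 2.65%), and all 7 endothelial markers were higher in mean (1068 to 1977 against 1465 to 4567 CPM) with 0 called. The summed level of collecting duct markers was highest in the 2 libraries that were also highest for most members, at 579 CPM in VHL-KO replicate 4 and 299 CPM in VHL-KO;SETD2-KO replicate 3, against 51.8 to 88.3 CPM in the other 4. Red blood cell markers reached 1884 CPM in VHL-KO replicate 4 against 534 to 675 CPM elsewhere. The sum of thick limb and distal tubule markers was high in the same libraries, at 5150 CPM in VHL-KO replicate 4 and 4333 CPM in VHL-KO;SETD2-KO replicate 3 against 1404 to 2069 CPM in the other 4. In VHL-KO replicate 4 its largest parts were Umod (2955 CPM) and Slc12a3 (1676 CPM). Single markers did not all follow: Slc12a1 (79.2 CPM), Calb1 (42.5 CPM) and the collecting duct marker Atp6v1g3 (2.71 CPM) were lowest in that library. The sum of fibroblast markers was also highest in VHL-KO replicate 4, at 301 CPM. These sums, like those of macrophage and lymphocyte markers, overlapped between the groups, and every marker of every list was counted in all 6 libraries. In bulk libraries fewer cells of a type and less RNA per cell cannot be told apart, and the part of cell make-up in the members' levels was not tested.

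**Figure D5:**
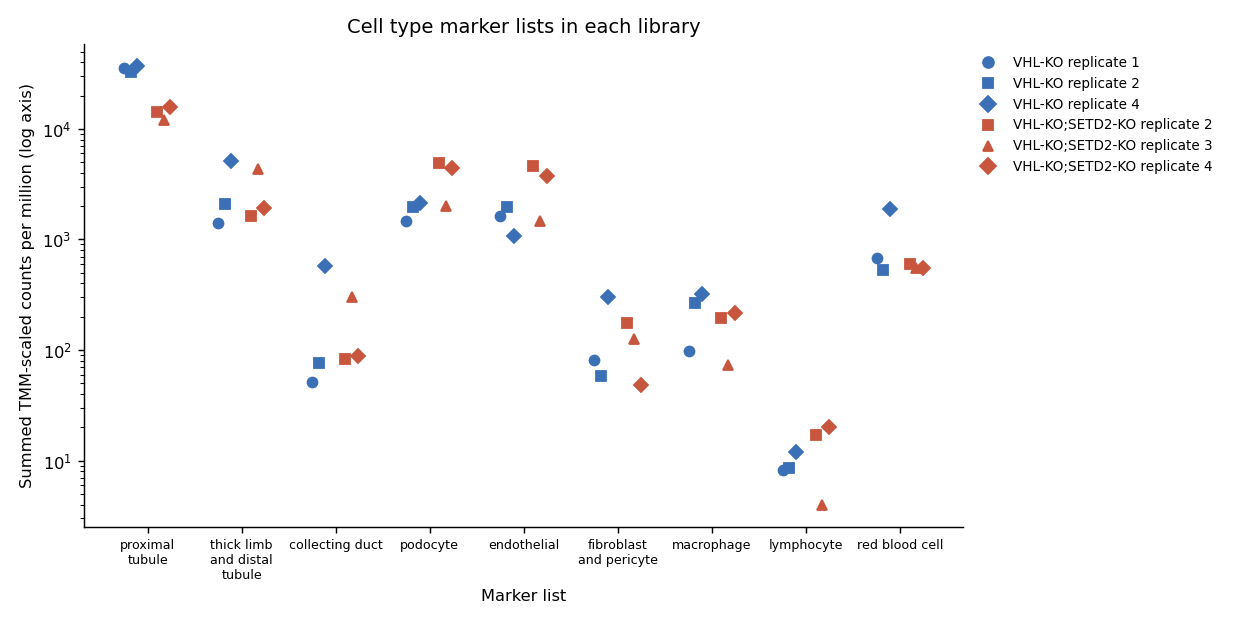
Summed TMM-scaled CPM (log axis) of 9 cell type marker lists in each library. Proximal tubule sums separate the groups, and collecting duct sums are highest in VHL-KO replicate 4 and VHL-KO;SETD2-KO replicate 3.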

How the data were processed

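RNA was sequenced from 3 libraries a group; the study's methods name a directional library kit and paired-end reads. The authors deposited raw gene counts; per the labels and the submitters' processing notes, reads were aligned with HISAT2 2.0.4 to GRCm38. The counter, annotation and strand setting are not given in the sources used here. Counts were tested with edgeR 4.0.16 (TMM scaling, quasi-likelihood test, R 4.3.3), over the genes passing edgeR's expression filter, with Benjamini-Hochberg adjustment. Calls needed p under 0.05 and a fold of at least 1.5. Alternatives used DESeq2 1.42.0 and limma-voom 3.58.1, and the code was tested on simulated data. Isoform ratios used counts plus 0.5 and exact permutation (scipy 1.17.1); 1 planned ratio is not reported here. Mitochondrial genes were 13 symbols, since the planned prefix was absent. Transcript length and GC content came from GENCODE M21 full-length models; restricting to these was decided after fragment models were seen to shorten the medians. Promoters were RefSeq windows. Members, lists and tests were chosen with earlier results of these data known. Genes named beyond the members were Setd2, Vhl, the isoform partners, and listed pathway genes at unadjusted p under 0.05, or else the most counted of a list. Tpi1, Gapdh, Pgam1, Bpgm, Eno1b, Slc16a7, Pdp1, Pfkfb3, Pdk3 and the single cell type markers were named after their values were seen.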

Additional observations from a re-analysis of the deposited data

How the results depend on the processing

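Leaving out VHL-KO replicate 4 turned the direction of Pfkl, Aldoa, Pkm and Slc16a3, and other omissions turned that of Hk1 and Pfkp. Leaving out each library in turn moved the log2 fold change from -0.30 to 0.96 for Hk1, -1.52 to 0.51 for Pfkl, -0.24 to 0.79 for Pfkp, -1.50 to 0.23 for Aldoa, -1.06 to 0.85 for Pkm, -2.29 to 0.67 for Slc16a3, -0.42 to 0.12 for Vhl, -0.51 to 0.23 for Pfkm, -0.37 to 0.59 for Slc16a1, -1.79 to 0.089 for Bsg and -0.24 to 0.072 for Egln1. Of these upper ends all but that of Slc16a1 came without VHL-KO replicate 4. Over the same omissions the difference in member share ran from -0.198 to 0.0442 percentage points, and the difference in log2 ratio from -0.54 to 0.63 for Hk2/Hk1, -0.20 to 0.61 for Pfkm/Pfkl and -2.27 to 0.96 for Slc16a3/Slc16a1. Members called at an unadjusted p numbered 0 to 3 higher and 0 to 2 lower, members without overlap 0 to 3 higher and 1 to 3 lower, and all genes 179 to 1243 higher and 206 to 1078 lower at an unadjusted p and 0 to 1 lower at an adjusted p.

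DESeq2 on all libraries called 1 gene higher and 50 lower at an adjusted p and 1133 lower at an unadjusted p, among them 2 members, and Pfkp was at -0.0035 there and at -0.0035 with DESeq2's size factors in edgeR. With VHL-KO replicate 4 left out, DESeq2 called 534 genes higher and 704 lower at an adjusted p (2 members higher) and 1425 and 1093 at an unadjusted p (3 members higher), with Pfkl at 0.50, Aldoa at 0.23, Pkm at 0.84 and Slc16a3 at 0.67. The offset for transcript length and GC content gave 886 genes higher and 1185 lower at an unadjusted p, with Pfkp at -0.28 and Pkm at 0.18. The same offset without VHL-KO replicate 4 gave 1072 and 1079, with 3 members called higher, Pfkl at 0.35, Aldoa at 0.15, Pkm at 0.74 and Slc16a3 at 0.50. The DESeq2 fit without that library and both offset fits were chosen after seeing the data. Library totals alone gave 812 genes higher and 309 lower at an unadjusted p, with Egln1 at 0.17, Pfkm at 0.0088 and Vhl at 0.067, and moved the median of all genes from 0.01 to 0.29 on the log2 scale and that of the members from -0.89 to -0.52. No filter on low counts gave 2 genes lower at an adjusted p and 634 higher at an unadjusted p with 1 member called lower, and at least 10 counts in every library gave 0 genes lower at an adjusted p. The cause of these shifts was not tested.

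The groups share the replicate numbers 2 and 4, but of the 2 same-numbered pairs 1 deviated weakly together (correlation 0.16) and 1 in opposite ways (-0.32), so the numbers were not taken as pairs. A fit with the number as a block called 93 genes higher and 54 lower at an unadjusted p, 0 members, and put Hk1 at -0.28 and Pfkp at -0.15.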
